A study of Mus musculus with 24 samples.

Results

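MHC class I molecules show peptides from inside a cell to T cells. Their supply line was followed through 10 mouse genes. These were the heavy chains H2-K1, H2-D1 and H2-T23, the light chain B2m, the transporter subunits Tap1 and Tap2, the loading factor Tapbp, the immunoproteasome subunits Psmb8 and Psmb9, and the transcriptional activator Nlrc5. The genes were taken by name, and all 10 were listed among 23871 genes in the PAPERCLIP tables and 47069 in the microglial RNA-seq tables.

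Counts came from 21 of the 24 libraries of the series. The cTag-PAPERCLIP method uses an allele, Ctag-PABP, that yields poly(A)-binding protein fused to GFP once Cre has acted in a chosen cell type. Antibodies to GFP then recover the mRNA bound to it from whole tissue. Cortex of Ctag-PABP mice carrying Gfap-Cre, Gad2-Cre or Camk2a-Cre gave 2 libraries per driver; these genes are known for astrocytes, inhibitory neurons and excitatory neurons. Whole brain of Cx3cr1-Cre; Ctag-PABP mice gave 2 untreated libraries, 3 after PBS (saline) and 3 after bacterial lipopolysaccharide (LPS), a trigger of innate immunity. Cx3cr1 is active in microglia and also in border macrophages and monocytes. The labels give neither age, sex and strain of the tagged mice nor the LPS dose they received. Liver gave 1 PAPERCLIP library, whose labels name CL57/B6J mice but neither a driver nor the tagged allele. RNA-seq covered microglia drawn with CD11b beads, 2 brains per tube, from adult wild-type C57BL/6 mice given PBS or 1 mg/kg LPS into the peritoneum daily for 4 days, in 3 libraries each.

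Depth and purity set what could be seen. Library totals ran from 630475 to 2005627 counts in cortex, from 133456 to 154959 in the untreated Cx3cr1 group, from 266330 to 337770 after PBS and from 679115 to 1041245 after LPS. Liver held 115734 counts and RNA-seq between 1250170 and 2133407. The summed level of 10 microglial markers was 23520 to 36970 CPM (counts scaled to a common library total) in the Cx3cr1 libraries, 23110 to 41070 in RNA-seq and 36 to 136 in cortex. PBS replicate 3 of PAPERCLIP stood apart, with 2866 CPM of pan-neuronal and 2451 CPM of hepatocyte markers, against at most 565 and 714 CPM in the other PBS and LPS libraries. Border macrophage and monocyte markers reached 781 and 2248 CPM in the untreated Cx3cr1 libraries, so those libraries also hold RNA of such cells. In RNA-seq, replicates 1 and 2 of each group had 1481 to 2861 counts of the female-expressed Xist and 0 of the Y-linked Ddx3y. Replicate 3 had 2 counts of Xist in each group and 281 (PBS) and 154 (LPS) of Ddx3y. So the RNA-seq replicates include both sexes, balanced between PBS and LPS. In PAPERCLIP, Xist had 0 counts in both Gfap libraries, against 29 and 18 in Gad2 and 60 and 72 in Camk2a. Ddx3y had counts in all of these libraries (112 and 280, 49 and 106, 164 and 119). Xist was also at 0 in the untreated Cx3cr1 libraries, at 3, 0 and 4 after PBS and at 7, 10 and 0 after LPS. The part of sex in the PAPERCLIP differences was not tested. In bulk libraries, fewer cells of a type and less RNA per cell cannot be told apart.

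Peptides for class I are cut by the proteasome, in which the interferon-inducible subunits Psmb8, Psmb9 and Psmb10 can take the places of Psmb5, Psmb6 and Psmb7. Tap1 and Tap2 together pump the peptides into the endoplasmic reticulum, where Tapbp (tapasin) holds a heavy chain with B2m beside the pump until it is loaded. Nlrc5 switches on these genes at their promoters together with RFX factors, and interferons and NF-kB raise them in inflammation. In the resting brain, class I is known from microglia and vessel cells, while most neurons carry little.

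On the mouse build GRCm38, 8 of the 10 genes lie on chromosome 17 between positions 33919478 and 36032701, in the MHC. In order these are Tapbp (chr17:33919478-33929290), H2-K1 (chr17:33996012-34000619), Psmb9 (chr17:34182030-34187330), Tap1 (chr17:34187556-34197225), Psmb8 (chr17:34198195-34201454), Tap2 (chr17:34204479-34216321), H2-D1 (chr17:35263094-35267497) and H2-T23 (chr17:36029977-36032701). B2m lies at chr2:122147687-122153082 and Nlrc5 at chr8:94434335-94527272. Tap1 and Psmb9 run in opposite directions from starts 226 bases apart, so a single stretch holds the promoters of both.

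The promoters of 5 genes that were higher after LPS in at least 1 assay are printed to show which short motifs they hold. Each runs from 250 bases upstream to the base before the annotated start, 5′ to 3′ on the gene's strand (RefSeq, GRCm38.p6). Capitals mark matches, on either strand, to GAANNGAAA (interferon-response type), GGANTNNCC (NF-kB type), TTCNNNGAA (STAT type), TGACGC (X2 type) and CCAAT (Y type). Windows are chr17:34000348-34000597 (minus strand) for H2-K1, which has 2 listed starts, chr17:35262844-35263093 for H2-D1, chr2:122147437-122147686 for B2m, chr17:34187306-34187555 for Tap1 and chr17:34197945-34198194 for Psmb8.
H2-K1: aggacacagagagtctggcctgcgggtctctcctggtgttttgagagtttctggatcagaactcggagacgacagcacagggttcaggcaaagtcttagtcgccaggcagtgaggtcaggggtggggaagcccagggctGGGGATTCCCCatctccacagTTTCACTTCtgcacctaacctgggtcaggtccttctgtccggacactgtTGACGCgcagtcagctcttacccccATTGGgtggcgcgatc
H2-D1: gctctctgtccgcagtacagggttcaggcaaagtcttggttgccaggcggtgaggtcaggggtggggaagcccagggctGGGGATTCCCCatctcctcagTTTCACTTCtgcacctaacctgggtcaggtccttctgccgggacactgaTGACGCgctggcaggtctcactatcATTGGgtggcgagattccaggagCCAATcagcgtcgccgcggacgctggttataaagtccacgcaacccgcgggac
B2m: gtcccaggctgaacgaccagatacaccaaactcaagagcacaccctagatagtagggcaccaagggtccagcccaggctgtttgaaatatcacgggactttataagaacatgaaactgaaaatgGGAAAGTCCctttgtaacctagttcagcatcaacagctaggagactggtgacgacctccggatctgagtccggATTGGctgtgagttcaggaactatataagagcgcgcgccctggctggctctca
Tap1: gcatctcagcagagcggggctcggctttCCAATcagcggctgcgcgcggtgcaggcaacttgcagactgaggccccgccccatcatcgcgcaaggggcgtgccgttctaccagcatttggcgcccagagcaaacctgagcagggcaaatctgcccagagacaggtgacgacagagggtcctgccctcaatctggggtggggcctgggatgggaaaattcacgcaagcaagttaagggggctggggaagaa
Psmb8: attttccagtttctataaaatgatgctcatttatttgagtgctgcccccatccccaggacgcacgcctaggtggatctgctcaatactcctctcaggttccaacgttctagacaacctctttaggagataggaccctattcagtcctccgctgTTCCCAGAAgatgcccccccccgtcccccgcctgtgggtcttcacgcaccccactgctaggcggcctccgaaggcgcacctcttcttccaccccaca
The H2-K1 and H2-D1 windows are near copies of each other, with 166 of 190 aligned bases identical (87.4%) at an offset of 60 bases. The interferon-response letters occurred in 2 of the 8 members with a RefSeq promoter, H2-K1 and H2-D1, and in 6.34% of 27025 promoters. Letters of the NF-kB type, partly overlapping on both strands in the heavy chains, occurred in H2-K1, H2-D1 and B2m (10.6% of all promoters). The X2 letters occurred in H2-K1 and H2-D1 (6.14%), the STAT letters in Psmb8 (7.18%) and CCAAT in 7 of 8 (34.5%). The Tap1 and Psmb9 windows overlap, and their CCAAT matches are the same bases read on opposite strands. With the near copies in H2-K1 and H2-D1, these counts are not of independent matches. Only these spellings were searched, so a window without a match may hold another form. That of B2m, without a match to the interferon-response letters, holds gaaactgaaa, with GAA and GAAA spaced wider than in the letters searched. A match describes the letters and is not evidence of a bound site.

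**Figure D1:**
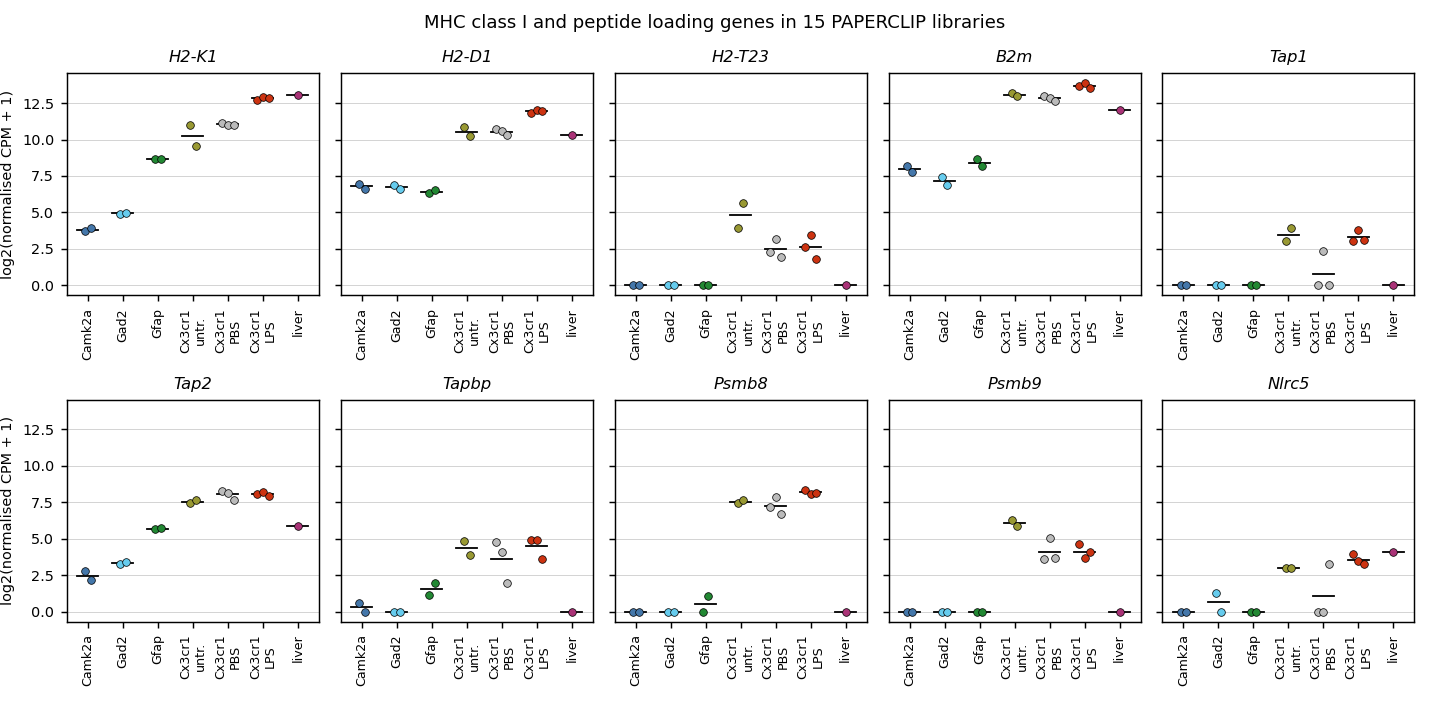
Level of each of the 10 genes in the 15 PAPERCLIP libraries, as log2(normalised CPM + 1) on the vertical axis; each point is a library, each bar the group mean, and groups are the driver lines and treatments on the horizontal axis. B2m, H2-K1, H2-D1, Tap2, Psmb8 and Psmb9 are higher in every Cx3cr1 library than in any cortical library.

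Microglia were set against neurons and astrocytes by testing the untreated Cx3cr1 group against the average of the 3 cortical groups. The members took 1.24% and 1.12% of all counts in the untreated Cx3cr1 libraries and 0.0288% to 0.0928% in cortex. Of the 10 members 6 passed the filter on low counts, and these 6 were called higher in the Cx3cr1 libraries, in a test that called 21.8% of 9421 genes higher. Psmb8 and Psmb9 passed that filter only through the Cx3cr1 libraries, where they are high, so the count of 6 is a description and not support. The median over all genes tested was −0.48. Calls are at an adjusted p of at most 0.05 in edgeR's quasi-likelihood test, with Benjamini-Hochberg adjustment over all genes. Since the Cx3cr1 libraries are from whole brain, a difference of tissue and one of cells cannot be told apart here. The Gfap, Gad2, Camk2a and untreated Cx3cr1 groups also share no prefix in their file names. In every comparison among these groups, driver line and whatever that prefix marks cannot be told apart.

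B2m, the light chain shared by all classical class I molecules, read 9324 and 8074 normalised CPM in the untreated Cx3cr1 libraries. Cortical libraries read 396 and 293 (Gfap), 175 and 119 (Gad2), and 284 and 219 (Camk2a). The groups lay far apart, by a log2 difference of 5.19 (SE 0.24, adjusted p = 1.43e-12).

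H2-D1, a classical heavy chain, read 1818 and 1193 normalised CPM in the untreated Cx3cr1 libraries. Cortical levels stayed within 79.3 and 121 in all 6 libraries. The log2 difference was 3.87 (SE 0.20, adjusted p = 1.12e-11), and H2-D1 set the Cx3cr1 group apart from 3 cortical groups that lay close together.

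H2-K1, the other classical heavy chain, read 2038 and 734 normalised CPM in the untreated Cx3cr1 libraries, the widest replicate gap among the members with over 100 counts. Cortical libraries read 409 and 399.5 (Gfap), 28.9 and 29.9 (Gad2), and 12.2 and 14 (Camk2a). The log2 difference was 4.64 (SE 0.27, adjusted p = 5.86e-11), and 3.58 without untreated replicate 1. Over all PAPERCLIP groups the order of H2-K1 was Camk2a, Gad2, Gfap, untreated, PBS, LPS and liver, and only untreated and PBS overlapped.

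H2-T23 encodes the heavy chain of Qa-1, a non-classical molecule seen by receptors of natural killer cells. It had 9 counts in the untreated Cx3cr1 libraries (14.2 and 49.4 normalised CPM) and 0 counts among 7970440 in cortex. Its level was 82.9-fold a limit of 3 counts over the cortical libraries, a figure that leaves out the counting error of the 9. It was too sparse for the test.

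Among the loading genes, Tap2 read 170 and 198 normalised CPM in the untreated Cx3cr1 libraries. In cortex it read 49.1 and 51.4 (Gfap), 8.68 and 9.36 (Gad2), and 5.84 and 3.51 (Camk2a). Its log2 difference was 3.79 (SE 0.31, adjusted p = 1.01e-08). Its transporter partner Tap1 had 3 counts in the Cx3cr1 libraries and 0 in cortex, which allows no fold. Tapbp had 6 counts against 7 in the far deeper cortical libraries, a ratio of 23.7 in CPM with a 95% counting interval of 6.58 to 82.3. Nlrc5 had 2 counts against 1 (ratio 55.3, interval 2.88 to 3260).

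The immunoproteasome members Psmb8 and Psmb9 had at most 2 counts each in all of cortex. Psmb8, which replaces Psmb5, had 53 counts in the untreated Cx3cr1 libraries (170 and 205 normalised CPM) and 2 in cortex, both in Gfap replicate 2. The ratio in CPM was 732, with an interval of 193 to 6200, and the adjusted p was 6.57e-10. The fitted log2 difference was 9.65, and 10.4 without Gfap replicate 2. Psmb9, which replaces Psmb6, had 19 counts (78.1 and 56.5 normalised CPM) against 0 (adjusted p = 4.55e-07). Its level was 175-fold a limit of 3 counts over the cortical libraries, a figure that leaves out the counting error of the 19.

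Of the constitutive subunits 1 was lower. Psmb5 had 1 count in the untreated Cx3cr1 libraries and 385 in cortex, a CPM ratio of 0.0718 (counting interval 0.00181 to 0.402, adjusted p = 0.00312). Its fitted log2 difference of −3.67 was −8.82 without untreated replicate 1 and −2.77 without replicate 2. Psmb6 and Psmb7 differed by −0.13 (SE 0.43, adjusted p = 0.824) and 0.55 (SE 0.23, adjusted p = 0.0522). The third inducible subunit, Psmb10, was higher by 1.81 (SE 0.32, adjusted p = 1.06e-04).

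Within the pair Psmb8 and Psmb5, Psmb8 took 96% and 100% of counts in the untreated Cx3cr1 libraries. In cortex it took 0% in 5 libraries and 2.22% in Gfap replicate 2. Psmb9 took 57.9% and 61.5% of Psmb9 plus Psmb6, from only 19 and 13 counts of the pair, against 0% in every cortical library. For Psmb10 and Psmb7 the shares were 43.8% and 29.3% against 14% to 25.2%. All 3 shares were higher in the untreated Cx3cr1 libraries without overlap (exact permutation test, 2-sided, p = 0.0357 each, the smallest that 2 against 6 allows). Adjusted over the 16 share comparisons made, the p was 0.19. In the deeper Cx3cr1 libraries Psmb9 took less of its pair, 11.1% to 28.6% after PBS and 13.2% to 19.7% after LPS.

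**Figure D2:**
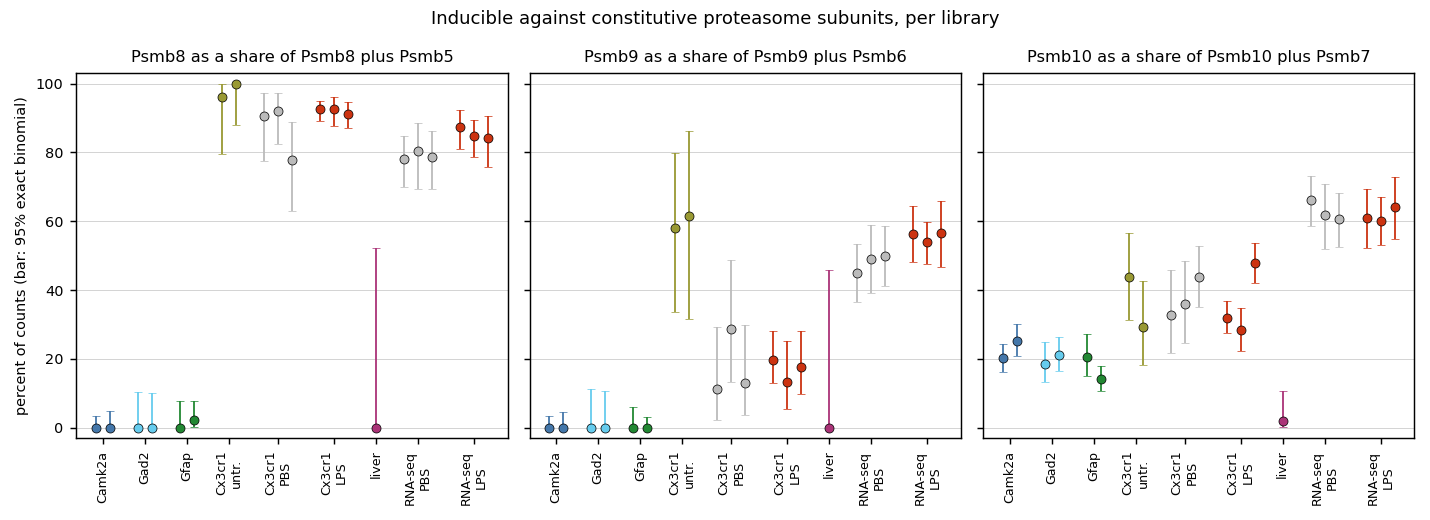
Share of counts taken by the inducible subunit of each proteasome pair, in percent on the vertical axis, for every library grouped on the horizontal axis by driver line, treatment and assay; bars are 95% exact binomial intervals for counting error. Psmb8 takes 77.8% or more of its pair in all Cx3cr1 and RNA-seq libraries and at most 2.22% in cortex.

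Other genes of the route were described by list, in the same test that called 21.8% of 9421 genes higher. Genes scarce in cortex may have passed the filter only through the Cx3cr1 libraries, where they are high. So the list counts here and in the next paragraph are descriptions and not support. Of 21 other class I heavy chain and class I-like genes only 3 could be tested, and those were higher: H2-M3 by 6.73 (SE 0.33), Hfe, an iron regulator, by 5.87 (SE 0.43), and the antibody receptor Fcgrt by 4.23 (SE 1.24). Fcgrt rests on 1 to 3 counts per Cx3cr1 library, its call was lost without untreated replicate 1 (3.16, adjusted p = 0.223), and it was at 4.81 without replicate 2. Among 12 loading and trimming genes, 11 were tested and 6 were higher, led by Tapbpl, a tapasin relative, at 4.71 (SE 1.14). Next came Ganab, a glucosidase of protein folding, at 2.77 (SE 0.25), and the peptide-trimming enzyme Erap1 at 2.75 (SE 0.85). Erap1 had 9 counts in untreated replicate 2 and 0 in replicate 1, so its direction rests on 1 library: it was at 3.60 without replicate 1 and −5.51 without replicate 2 (adjusted p = 0.372).

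Of 8 other proteasome genes, 7 were tested, with 3 higher and 2 lower. The activator subunit Psme1 was higher by 2.74 (SE 0.43) and the assembly factor Pomp by 1.16 (SE 0.24), and Psme3, a different activator, was lower by −0.77 (SE 0.29). Without untreated replicate 1, Psme1 was at 1.68, and without replicate 2 the Pomp call was lost (adjusted p = 0.116). Of 20 transcription and interferon signalling genes, 16 were tested, with 7 higher and 1 lower. Irf8, a factor of microglial identity, was higher by 8.11 (SE 0.63), the interferon-gamma receptor chains Ifngr1 and Ifngr2 by 4.42 (SE 0.21) and 4.13 (SE 0.28). Without Gad2 replicate 2, Irf8 was at 8.88. The kinase Jak1 was lower by −1.18 (SE 0.32), a call lost without untreated replicate 2 (adjusted p = 0.0652) and with libraries thinned to the shallowest (0.052).

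The Gfap libraries were then compared with the mean of the neuronal groups, to contrast astrocytes with neurons. Driver line and file-name prefix cannot be told apart here either. H2-K1 and Tap2 were many-fold higher in the Gfap libraries while H2-D1 was not. Of the 6 members in the fit 3 were higher and 0 lower, where 31.3% of 9421 genes were called higher. Psmb9 had 0 counts in the 6 libraries compared and Psmb8 had 2, so both were in the fit only through the untreated Cx3cr1 libraries and 4 members had values to compare. The median over all genes was 0 (−0.20 with total counts as the scaling).

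H2-K1 was 22.2-fold higher in the Gfap libraries (409 and 399.5 normalised CPM against 12.2 to 29.9; log2 difference 4.47, SE 0.31, adjusted p = 4.18e-10). Tap2 was 8.23-fold higher (log2 difference 3.04, SE 0.29, adjusted p = 2.91e-08), and its Gfap values of 49.1 and 51.4 lay above all 4 neuronal values. B2m differed by 0.97 (SE 0.27, adjusted p = 0.00421), with Gfap values of 396 and 293 just above the highest neuronal value of 284. That call was lost without Gfap replicate 1 (0.68, adjusted p = 0.0889).

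H2-D1 read 79.3 and 92.1 normalised CPM in the Gfap libraries and 98.3 to 121 in the neuronal ones. The log2 difference was −0.21 (SE 0.24, adjusted p = 0.481), with a 95% interval of −0.72 to 0.30. That interval lies far from the difference seen for H2-K1. Psmb8, with its 2 counts in Gfap replicate 2, did not pass (adjusted p = 0.0883), and Psmb9 had 0 counts in all 6 libraries.

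The mix of heavy chains was set side by side within each library. H2-K1 made up 83.8% and 81.3% of H2-K1 plus H2-D1 counts in the Gfap libraries. It made up 20% and 23.4% in Gad2 and 9.16% and 12.5% in Camk2a libraries. The Gfap mean exceeded the neuronal mean by 66.3 percentage points, with no overlap (exact permutation test, 2-sided, p = 0.0667, the smallest that 2 against 4 allows; 0.229 adjusted over 16 comparisons). Leaving out any 1 library gave 63.9 to 68.6 points. Reads of H2-K1 and H2-D1 may be exchanged between these related genes, and how the authors assigned such reads is not given in the sources used here. Whether such exchange differs between libraries was not tested.

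**Figure D3:**
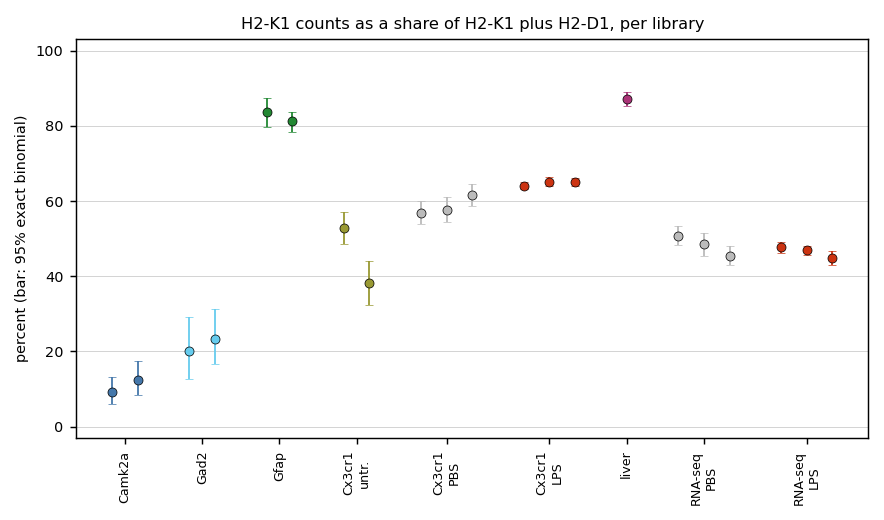
H2-K1 counts as a percent of H2-K1 plus H2-D1 counts (vertical axis) in each library, by group; points are libraries and bars are 95% exact binomial intervals. Gfap libraries lie at 81.3% and 83.8% and liver at 87.3%, neuronal libraries at 9.16% to 23.4%, and all Cx3cr1 and RNA-seq libraries between 38.1% and 65.2%.

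Levels of markers of other cells are given beside these values. The 9 endothelial and mural markers summed to 137 and 204 CPM in the Gfap libraries against 4.49 to 8.42 in the neuronal ones, with Pecam1, Tek and Ly6c1 at 0 in the Gfap group. Microglial markers summed to 126 and 131 CPM in the Gfap libraries, 104 and 136 in Gad2 and 36 and 38.9 in Camk2a. Oligodendrocyte markers summed to 1134 and 8940 CPM in Gfap replicates 1 and 2 and to 292 to 371 in the neuronal libraries. The part of these cells in the H2-K1 and Tap2 differences was not tested.

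Of 3 other class I-like genes tested in this comparison, 2 were higher, Fcgrt by 5.73 (SE 0.90) and Hfe by 3.54 (SE 0.56; 4.16 without Gfap replicate 2). Loading and trimming genes were higher for 4 of 11, with Erap1 at 2.70 (SE 0.59), the translocon subunit Sec61a1 at 1.12 (SE 0.29) and the chaperone Canx at 1.01 (SE 0.23). The Sec61a1 call was lost without Gfap replicate 2 (adjusted p = 0.184). Of 7 other proteasome genes, Psmb6 was higher (0.90, SE 0.23) and Psme3 lower (−0.65, SE 0.21). Psmb5, Psmb7 and Psmb10 read 0.42 (SE 0.26), 0.17 (SE 0.20) and −0.24 (SE 0.26), none past the threshold. Transcription and signalling genes split as 6 higher and 2 lower of 16. Among them were the NF-kB subunit Rela at 3.49 (SE 0.67; 4.80 without Camk2a replicate 2), Ifngr1 at 1.72 (SE 0.24) and the RFX-complex member Rfxank at 1.53 (SE 0.34). Rfxap, another member of that complex, was lower by −1.11 (SE 0.27), and its call was lost without Gfap replicate 2 (adjusted p = 0.119), as was that of Psme3 (0.155), which was also lost without Camk2a replicate 2 (0.0534). With libraries thinned to the shallowest, the calls of Psmb6 (adjusted p = 0.198) and Psme3 (0.109) were lost too.

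Between the neuronal groups, 0 of 6 members in the fit passed in edgeR, in a comparison that called 21.2% of 9421 genes in either direction. Psmb8 and Psmb9 had 0 counts in all 4 libraries compared and could not have been called. At an unadjusted p under 0.05 there were 2, B2m and H2-K1, and DESeq2 called 0. H2-K1 was at 12.2 and 14 normalised CPM in Camk2a and at 28.9 and 29.9 in Gad2 libraries (log2 difference −1.25, SE 0.47, adjusted p = 0.0646). That value passed without untreated Cx3cr1 replicate 1 (adjusted p = 0.00279) or replicate 2 (0.00361), which are not among the groups compared. It also passed with total counts as the scaling (0.0407), without a filter (0.0182) and with the replicate block (0.0168).

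B2m, at 284 and 219 against 175 and 119 normalised CPM, differed by 0.70 with a 95% interval of 0.02 to 1.37 (adjusted p = 0.145). It passed without untreated replicate 2. Tap2 differed by −1.02 (SE 0.50, adjusted p = 0.165). H2-D1 differed by −0.05, with an interval of −0.62 to 0.53. In the other lists, 1 proteasome gene was lower, Psmb7 (−0.64, SE 0.23, adjusted p = 0.0499), a call lost in every one of the leave-one-out settings for the Gfap, Gad2 and Camk2a libraries (adjusted p = 0.0529 to 0.396). The signalling gene Stat2 was higher (0.89, SE 0.26) and Nfkb1, an NF-kB subunit, lower (−0.97, SE 0.30). Stat2 was lost without any 1 Camk2a or Gad2 library (adjusted p = 0.0705 to 0.182), and Nfkb1 without Gad2 replicate 1 or either Camk2a library (0.128 to 0.276). Psmb5, Psmb6 and Psmb10 read 0.09 (SE 0.31), 0.22 (SE 0.29) and −0.41 (SE 0.29).

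Liver, with 1 library and no test, held the classical chains in a different proportion. H2-K1 had 1041 counts, or 8995 CPM (exact Poisson 95% interval 8457 to 9558), B2m 504 counts (4355 CPM, 3983 to 4752) and H2-D1 152 counts (1313 CPM, 1113 to 1540). H2-K1 made up 87.3% of the pair, above the 38.1% to 65.2% of all Cx3cr1 and RNA-seq libraries and near the Gfap values. Tap2 had 7 counts (60.5 CPM, 24.3 to 125) and Nlrc5 2 (17.3 CPM, 2.09 to 62.4). Tap1, Tapbp, H2-T23, Psmb8 and Psmb9 had 0 counts, which allows up to 25.9 CPM each. For Psmb8 that limit lies below the 102 to 327 normalised CPM of the Cx3cr1 libraries, whereas for Tap1, at 0 to 14.1 there, depth cannot show a difference. Intervals and limits cover counting error only.

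**Figure D4:**
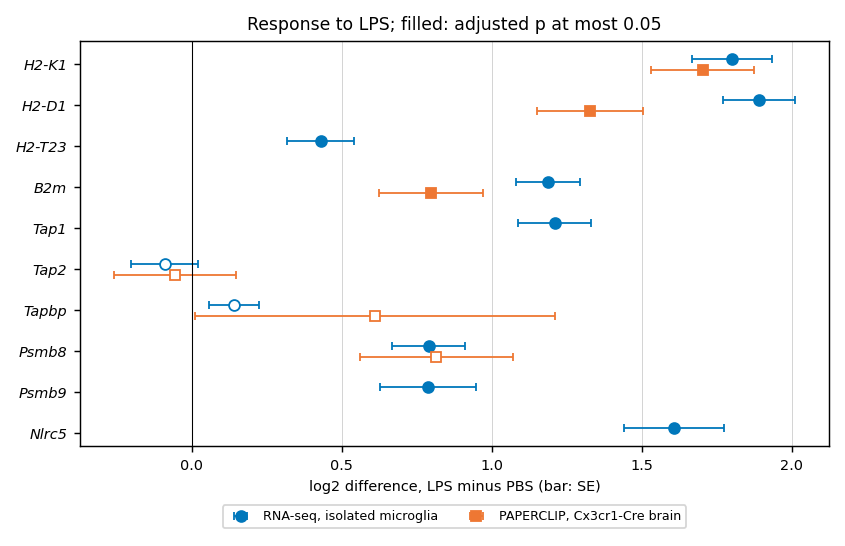
Log2 difference between LPS and PBS (horizontal axis, bars are SE) for each of the 10 genes (vertical axis), in RNA-seq of isolated microglia (circles) and PAPERCLIP of Cx3cr1-Cre brain (squares); filled symbols passed at an adjusted p of at most 0.05. H2-K1, H2-D1 and B2m are filled in both assays and Tap2 sits near 0 in both; 4 genes were too sparse to be tested in PAPERCLIP.

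PBS injection was looked at by setting PBS against untreated Cx3cr1 libraries. These groups share no prefix in their file names, so injection and whatever that prefix marks cannot be told apart. None of the 6 members tested passed in edgeR (0 called, 1 at an unadjusted p under 0.05, and 0 in DESeq2), where 2.01% of 5112 genes were called. B2m differed by −0.34 (95% interval −0.82 to 0.14), H2-D1 by −0.10 (−0.64 to 0.44) and Tap2 by 0.44 (−0.19 to 1.07). Psmb9 was at 11.4, 32.3 and 11.6 normalised CPM after PBS against 78.1 and 56.5 untreated, from 3 to 11 counts per library (log2 difference −1.98, SE 0.61, adjusted p = 0.102). The H2-K1 difference was 0.54 (SE 0.33, adjusted p = 0.377). It became 1.46 with untreated replicate 1 left out (adjusted p = 0.00861), the library at 2038 where the other read 734. In the other lists H2-M3 (−1.77, SE 0.37) and Ganab (−2.09, SE 0.36) were lower after PBS. The H2-M3 call was lost without untreated replicate 2, PBS replicate 1 or 3, or LPS replicate 1 or 2 (adjusted p = 0.0539 to 0.244), and that of Ganab without PBS replicate 1 or 3 (0.108 and 0.0716). Psmb6, Psmb7 and Psmb10 read 0.77 (SE 0.39), −0.66 (SE 0.29) and −0.53 (SE 0.41).

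After LPS, H2-K1, H2-D1 and B2m rose in tagged microglia. Members took 2.25% to 2.44% of all counts in the LPS libraries of PAPERCLIP, against 1% to 1.2% after PBS. Of 6 members tested 3 were higher and 0 lower, where 2.74% of 5692 genes were called higher. The median of the 6 was 0.81 against −0.01 over all genes.

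H2-K1 read 2250, 2054 and 2012 normalised CPM after PBS and 6547, 7725 and 7430 after LPS. Every LPS library lay above every PBS library, 3.26-fold on average (log2 difference 1.70, SE 0.17, adjusted p = 1.38e-04). H2-D1 read 1706, 1504 and 1249 after PBS and 3677, 4121 and 3977 after LPS (2.51-fold, log2 difference 1.33, SE 0.18, adjusted p = 0.00101). Its groups also did not overlap.

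B2m read 8167, 7454 and 6274 normalised CPM after PBS and 13300, 14790 and 12020 after LPS. That is 1.74-fold (log2 difference 0.80, SE 0.17, adjusted p = 0.0202), beside 3.26-fold for H2-K1 and 2.51-fold for H2-D1 in the same libraries; the difference between genes was not tested. The groups did not overlap, but the call was lost without PBS replicate 1, 2 or 3 (adjusted p = 0.0905, 0.079 and 0.0897) or LPS replicate 2 (0.0779). The log2 difference stayed between 0.73 and 0.88 in those settings.

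Within the pair, H2-K1 took 56.9%, 57.7% and 61.7% of counts after PBS and 64%, 65.2% and 65.1% after LPS. The LPS mean was 6.02 percentage points higher, without overlap (exact permutation test, 2-sided, p = 0.1, the smallest that 3 against 3 allows; 0.229 adjusted). It was 5.08 to 7.49 points with any 1 library left out.

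Psmb8 was at 144, 235 and 102 normalised CPM after PBS and at 327, 272 and 277 after LPS. The groups did not overlap, but PBS replicate 2 lay close to the LPS values, and the difference of 0.82 (SE 0.25) did not pass (adjusted p = 0.112). With the replicate number as a block it did (0.84, adjusted p = 0.0151). It also passed with a batch term from the file names (adjusted p = 0.0345), without a filter (0.00502), in a fit of all 14 tagged brain libraries (0.031) and without PBS replicate 2 (1.18, adjusted p = 0.038).

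Tap2 did not pass. It read 312, 287 and 204 normalised CPM after PBS and 272, 298 and 239 after LPS, with overlap, and the log2 difference was −0.06 (95% interval −0.49 to 0.38, adjusted p = 0.925). Tapbp, from 1 to 28 counts per library, had a difference of 0.61 (SE 0.60, adjusted p = 0.691), with 1.32 and 0.06 at the extremes of leaving out 1 library.

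The remaining members were sparse in PAPERCLIP and were not tested. Counts of Tap1 were 0, 1 and 0 in the PBS group and 7, 8 and 6 in the LPS group, in libraries that were deeper after LPS (4.04 normalised CPM in 1 PBS library and 7.13 to 13.2 after LPS). Those of Nlrc5 were 0, 0 and 3 against 14, 6 and 7 (up to 8.73 against 8.80 to 14.3 normalised CPM). Psmb9 overlapped between groups at 11.4 to 32.3 and 11.5 to 23.4 normalised CPM. H2-T23 had at most 6 counts in any PBS or LPS library.

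In the other lists of the same comparison, 1 of 5 heavy chain and class I-like genes tested was higher, H2-Q7, a Qa-2 chain whose counts are identical to those listed for H2-Q9. It rose by 2.08 (SE 0.37, adjusted p = 0.00674), from 26.4 ± 5.98 to 118 ± 44.9 normalised CPM (SD, n = 3 each), a call lost without PBS replicate 1 (0.0609) or 3 (0.0516). Among 9 loading and 7 proteasome genes 0 passed, and Psmb5, Psmb6, Psmb7 and Psmb10 read 0.09 (SE 0.39), −0.08 (SE 0.24), 0.30 (SE 0.22) and 0.14 (SE 0.30). Interferon gamma (Ifng) had 0 counts in all 6 libraries, and Ifnb1, listed at 0 in the PBS group, had 8, 2 and 2 in the LPS group.

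RNA-seq of isolated microglia covered all 10 members. It placed 8 of them higher after 4 daily LPS doses and 0 lower, where 15.9% of 10267 genes were called higher. The median of the 10 was 0.99 against −0.02 over all genes (−0.13 with total counts as the scaling). Together the members took 0.293% to 0.302% of counts after PBS and 0.59% to 0.716% after LPS.

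**Figure D5:**
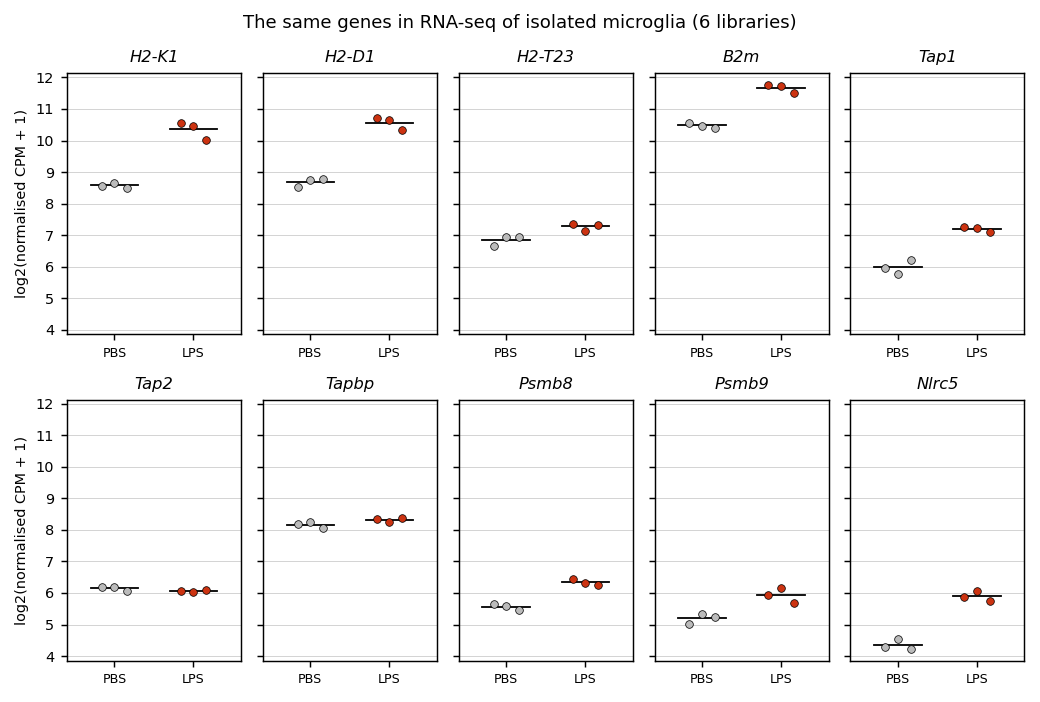
Level of each of the 10 genes in the 6 RNA-seq libraries of isolated microglia, as log2(normalised CPM + 1) on the vertical axis, after PBS (left) and LPS (right); points are libraries and bars group means. The LPS libraries lie above the PBS libraries for every gene except Tap2, and for Tapbp by less than the test could call.

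Among the 8, H2-D1 and H2-K1 had the largest differences. H2-D1 read 367, 426 and 435 normalised CPM after PBS and 1663, 1602 and 1287 after LPS, a 3.71-fold rise (log2 difference 1.89, SE 0.12, adjusted p = 1.66e-06). H2-K1 read 379, 400.2 and 363 after PBS and 1517, 1415 and 1043 after LPS, a 3.48-fold rise (log2 difference 1.80, SE 0.13, adjusted p = 2.90e-06). Replicate 3 was the lowest LPS library for both, still far above every PBS library.

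H2-T23 read 99.5, 122 and 122 normalised CPM after PBS and 164, 140 and 160 after LPS. It was higher by 0.43 (SE 0.11, adjusted p = 0.0147), 1.35-fold, a small change beside those of the classical chains. The call was lost with total counts as the scaling (0.32, adjusted p = 0.0641), without PBS replicate 1 (0.33, 0.0807) and without LPS replicate 1 (0.39, 0.0721).

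B2m read 1520, 1418 and 1357 normalised CPM after PBS and 3461, 3418 and 2910 after LPS. It rose 2.28-fold (log2 difference 1.19, SE 0.11, adjusted p = 1.07e-05). In RNA-seq as in PAPERCLIP, B2m rose by less than H2-K1, by point estimate; the difference between genes was not tested.

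The transporter subunits had intervals that did not overlap. Tap1 read 61.5, 53.7 and 72.5 normalised CPM after PBS and 153, 149 and 135 after LPS, a 2.31-fold rise (log2 difference 1.21, SE 0.12, adjusted p = 2.52e-05). Tap2 read 72.2, 72.1 and 65.5 after PBS and 66, 64.6 and 67.1 after LPS. Its log2 difference was −0.09 (SE 0.11, adjusted p = 0.606), with a 95% interval of −0.33 to 0.15 that does not reach the Tap1 interval of 0.94 to 1.48. The genes lie beside each other, with Psmb8 between them.

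Tapbp read 293, 301 and 267 normalised CPM after PBS and 322, 302 and 330 after LPS. The log2 difference was 0.14 (SE 0.08, adjusted p = 0.240), with an interval of −0.04 to 0.33. Every LPS value lay above every PBS value, by as little as 301.6 against 301.3.

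Both immunoproteasome members rose. Psmb8 went from 48.8, 46.8 and 43.5 to 86.6, 79.5 and 74.5 normalised CPM (1.73-fold, log2 difference 0.79, SE 0.12, adjusted p = 5.16e-04). Psmb9 went from 31.7, 39.1 and 36.5 to 60.5, 70.8 and 50.5 (1.73-fold, log2 difference 0.79, SE 0.16, adjusted p = 0.00357). Groups did not overlap for either gene.

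Nlrc5, the activator, read 18.54, 22.2 and 17.7 normalised CPM after PBS and 57, 65.5 and 53 after LPS. It rose 3.05-fold (log2 difference 1.61, SE 0.17, adjusted p = 3.00e-05). All 3 LPS libraries lay well above the PBS libraries.

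Shares within the proteasome pairs were computed as for the cell types. Psmb8 took 78.1%, 80.3% and 78.6% of Psmb8 plus Psmb5 after PBS and 87.5%, 84.6% and 84.1% after LPS, 6.4 points more on average. Psmb9 took 44.8% to 50% of its pair after PBS and 53.9% to 56.5% after LPS, 7.62 points more. Neither overlapped (exact permutation test, 2-sided, p = 0.1 each, the smallest possible; 0.229 adjusted). For Psmb10 and Psmb7 the mean share differed by −0.99 points with overlap (exact permutation p = 0.6). In PAPERCLIP the Psmb8 share was 5.39 points higher after LPS, with overlap (exact permutation p = 0.2). There the Psmb9 share differed by −0.71 points and the Psmb10 share by −1.46, both with overlap. In RNA-seq the H2-K1 share differed by −1.80 points (exact permutation p = 0.4), from 45.5% to 50.8% after PBS to 44.8% to 47.7% after LPS. That is not the direction seen in PAPERCLIP.

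Of 21 other heavy chain and class I-like genes 11 were tested and 9 were higher. The class I-like Mr1, Hfe and Fcgrt are among the 9, and Cd1d1 and H2-T24 did not pass. The list was led by H2-Q6 at 2.60 (SE 0.22), H2-Q7 at 2.57 (SE 0.30) and H2-Q5 at 2.34 (SE 0.40), all Qa-region chains with near-identical copies, so their counts are uncertain. H2-M3, which presents bacterial peptides, rose by 1.00 (SE 0.14). Of 12 loading and trimming genes 1 was higher, the aminopeptidase Lnpep (0.54, SE 0.11). Of 8 proteasome genes 3 were higher, Psme1 (0.70, SE 0.10), Pomp (0.38, SE 0.12) and the activator subunit Psme2 (0.37, SE 0.11). Psmb5, Psmb6, Psmb7 and Psmb10 read 0.14 (SE 0.24), 0.36 (SE 0.17), 0.22 (SE 0.16) and 0.14 (SE 0.13), none past the threshold. The medians of those lists were 1.00, 0.05 and 0.29.

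Pomp, Psme2 and Rela, an NF-kB subunit that was lower (−0.33, SE 0.11), were near the threshold. Psme2 was lost without any 1 library (adjusted p = 0.0749 to 0.101) except LPS replicate 3. Pomp was lost without PBS replicate 2 or 3 or LPS replicate 1 or 3 (0.064 to 0.102), and Rela without PBS replicate 2 or 3 or LPS replicate 1 or 2 (0.0912 to 0.125). DESeq2 called none of these 3. Psmb6 passed without LPS replicate 3 (0.50, adjusted p = 0.0417).

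Interferon signalling genes split as 6 higher and 1 lower of 19 tested. Stat2 was higher by 0.89 (SE 0.12) and the receptor chain Ifnar1 by 0.78 (SE 0.09). Among ligands, Ifng was at 0, 1 and 0 counts in the PBS group and 7, 6 and 3 in the LPS group, too few to test. Of 5 ligands only Tnf could be tested, and 0 were called.

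Markers of other cells moved with the LPS libraries. In RNA-seq, 11 T and NK cell markers summed to 11.9 to 20.7 CPM after PBS, with Cd3e, Cd3g and Cd8a at 0, and to 70.4 to 105 after LPS. Dendritic markers (7 of 7 with counts) summed to 43.9 to 59.9 CPM after PBS and 136 to 148 after LPS. Neutrophil markers (7 of 7) read 111, 232 and, in replicate 3, 1143 CPM after PBS and 662 to 833 after LPS. Microglial markers summed to 40260 to 41070 CPM after PBS and 23110 to 29290 after LPS. Erythroid markers (4 of 4) were at 101.5 to 115 and 5.63 to 16 CPM. Endothelial and mural markers (9 of 9) were at 660.2 to 1447 and 273 to 667 CPM. Hepatocyte markers (4 of 8 with counts) read 7738, 7205 and, in replicate 3, 1807 CPM after PBS and 1511 to 1901 after LPS. Of these markers Apoa1, Serpina1a, Fgb and Apoc3 were at 0 in both RNA-seq groups. In PAPERCLIP the T and NK markers summed to 15 to 26.7 CPM after PBS and 42.4 to 82.5 after LPS, with Cd8a at 0 throughout, while border macrophage and monocyte markers were at 719 to 890 and 811 to 1059 CPM. There, microglial markers were at 29400 to 32420 CPM after PBS and 23520 to 25990 after LPS, and dendritic markers at 53.3 to 79.7 and 83.9 to 115.5. Neutrophil markers were at 0 after PBS and 4.72 to 5.89 after LPS (3 of 6 with counts), endothelial and mural markers at 14.5 to 32.6 and 13 to 13.4, and excitatory neuron markers at 90.6 to 355 and 70.7 to 80.7. The part of these cells in the class I differences was not tested. In PBS replicate 3 of PAPERCLIP, the library with hepatocyte and neuronal RNA, H2-K1, H2-D1 and B2m were the lowest of the PBS group. Without replicate 3 of both groups 3 members were still called in PAPERCLIP and 8 in RNA-seq.

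The responses of the 2 assays were compared directly in a joint fit of 12 libraries. For 0 of 10 members did the response differ in edgeR, where 0.00983% of 10169 genes were called. At an unadjusted p under 0.05 there was 1, H2-D1, and DESeq2 called 0. The RNA-seq response minus the PAPERCLIP response was 0.50 for H2-D1 (95% interval 0.06 to 0.93, adjusted p = 0.480), 0.32 for B2m (−0.09 to 0.73) and 0.03 for H2-K1 (−0.41 to 0.46). It was −0.11 for Psmb8 (−0.70 to 0.49) and −0.10 for Tap2 (−0.56 to 0.35). The intervals of the sparse members were wide, such as −3.81 to 0.61 for Tap1 and −1.35 to 1.25 for Nlrc5, so equal responses are not shown. Dose, schedule, mice and the cells captured differ or may differ between the assays.

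Several members were far scarcer in PAPERCLIP than in RNA-seq of PBS microglia. Tapbp read 2.91 to 26.6 against 267 to 301 normalised CPM, H2-T23 2.91 to 8.09 against 99.5 to 122, and Tap1 0 to 4.04 against 53.7 to 72.5. The opposite held for B2m, at 6274 to 8167 against 1357 to 1520, and H2-K1, at 2012 to 2250 against 363 to 400.2. These scales were normalised separately and count different things, mRNA ends bound to tagged protein in one and whole transcripts in the other, so only the contrast between genes is described.

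Across the 14 tagged brain libraries, the genes whose log2(normalised CPM + 1) followed the mean of the 7 members that passed the filter most closely were Ctsc, Ctsh, Lair1, Ctsz and Vasp (Pearson r 0.99 each, of 5589 genes ranked). Ctsc, Ctsh and Ctsz encode lysosomal cathepsins and Lair1 an inhibitory receptor of immune cells. Over the 6 PBS and LPS libraries of PAPERCLIP the top 5 were Glrx, Chmp4b, Fpr1, Ms4a4c and Sdcbp (r 0.986 to 0.998, 6 members, 4653 genes), and Fpr1 is a receptor for bacterial formyl peptides. Over the 6 RNA-seq libraries they were Rps19, Myo1f, Eif4b, Rpl7a and Rpl18 (r 0.998 to 0.999, 10 members, 5619 genes), of which 3 are ribosomal protein genes. Libraries fall into groups, so r mainly follows the group differences and carries no test. Against the mean of the other members in RNA-seq, 8 members had r of 0.859 to 0.997, Tapbp 0.712 and Tap2 −0.674.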

How the data were processed

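The deposited tables hold whole-number counts of reads per gene, on build mm10. Per the submitters' processing notes, the authors used cutadapt, Novoalign and STAR. No source used here states duplicate collapse, strand use or how shared reads were assigned. Genes were matched by symbol in PAPERCLIP and by Ensembl ID in RNA-seq. The members and lists were chosen with earlier results of these data known.

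Counts were tested with edgeR 4.0.16 in R 4.3.3 (quasi-likelihood F-test, filterByExpr, TMM), with Benjamini-Hochberg adjustment over all genes tested and a threshold of 0.05; DESeq2 1.42.0 was an alternative. The cell-type fits held the 8 cortical and untreated libraries, PBS against untreated the 8 Cx3cr1 libraries, and each LPS fit its own 6. The script was tested on simulated data. Normalised CPM uses TMM-scaled library totals. From each other list the text names the 3 genes with the largest change among those higher and the 1 lowest, plus Psmb5, Psmb6, Psmb7 and Psmb10; H2-M3, Mr1, Hfe, Fcgrt, Cd1d1 and H2-T24 after LPS were named after their values were seen. The labels do not say that replicates came from separate mice, so p-values measure the spread between these libraries, which may be technical; in RNA-seq, replicate 3 differs in sex from replicates 1 and 2 and so comes from other mice. Same-numbered PBS and LPS libraries of PAPERCLIP deviated together (correlations 0.13, 0.24 and 0.188), so they may be pairs, which is read from the data only. The LPS tests and share tests reported above did not use such pairs. Only the setting with the replicate number as a block did. The 3 Ptbp2-KO libraries were not used. The result of 1 gene that the naming rule selects is not reported here.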

Additional observations from a re-analysis of the deposited data

How the results depend on the processing

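Of 864 values recomputed for the members, 844 kept their direction and their side of the threshold, 12 newly passed and 8 no longer passed. For the named pathway genes 1028 of 1101 did so, 68 no longer passed, 4 newly passed and 1 reversed: Erap1, Cx3cr1 against cortex, which ran from −5.51 (without untreated replicate 2) to 3.60 (without replicate 1). With a filter at 5 CPM, 10 members were called in that comparison; the 4 added ones (H2-T23, Tap1, Tapbp and Nlrc5) entered through 1 to 7 counts per library in the shallow Cx3cr1 libraries, where they are high, so this is no support. Between Camk2a and Gad2, 1 member was called with total counts only, with no filter and with the replicate block, and 0 to 2 with 1 library left out. Leaving out 1 library gave 5 to 6 members for Cx3cr1 against cortex, 2 to 3 for Gfap against neurons, 0 to 1 for PBS against untreated, 2 to 3 for LPS in PAPERCLIP and 7 to 8 in RNA-seq. The causes were not tested.

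With the replicate number as a block, 6, 3, 1, 0, 4 and 8 members were called in these comparisons (Cx3cr1, Gfap, Camk2a, PBS, LPS in PAPERCLIP, LPS in RNA-seq), and 0 in the difference between assays. In RNA-seq the same-numbered libraries correlated at 0.114, 0.0977 and 0.192 and are not taken as paired. Replicates 1 and 2 are female and replicate 3 male by Xist and Ddx3y, in both groups; with a term for that split, 8 members were called. At the depth of the untreated Cx3cr1 libraries, H2-T23, Tap1, Tapbp and Nlrc5 did not pass the filter of the comparison with cortex as reported.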
